A study of Homo sapiens with 8 samples.

Results

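NF-kB is a family of dimeric transcription factors, and the 9 genes described here encode its 5 subunits (NFKB1, NFKB2, REL, RELA and RELB) and 4 of the proteins that restrain it (NFKBIA, NFKBIB, NFKBIE and TNFAIP3). They were taken by gene symbol, and all 9 were found among the 55737 genes of the deposited table. LNCaP cells, a human prostate cancer line from a lymph node metastasis, had been treated for 4 hours and profiled by RNA sequencing. The control group received a control treatment that the labels do not describe further, a group received 40 µM OSMI-2, which inhibits O-GlcNAc transferase (OGT), a group received 0.5 µM AT7519, which inhibits several cyclin-dependent kinases including CDK9, and a combination group received both agents at these doses. These doses follow the series design, and the protocol text writes mM for µM. Each group had 2 libraries, 8 in all, of 1 cell line. Nothing in the labels says that they came from separate cultures, so p-values here reflect library-to-library spread alone, and that spread may be technical. By its title, the series is about how blocking OGT alters the dependence of prostate cancer cells on CDK9.

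In resting cells NF-kB dimers are held in the cytoplasm by the IkB proteins, encoded by NFKBIA, NFKBIB and NFKBIE, until the IkB kinase complex marks these for degradation and the dimers enter the nucleus. NFKB1 and NFKB2 encode precursors that are cut to DNA-binding subunits without a transactivation domain of their own, whereas RELA, REL and RELB carry one. TNFAIP3 is a ubiquitin-editing enzyme that shuts off signalling above the kinase complex. Several of the family's genes are themselves NF-kB targets, and RELA is known to recruit P-TEFb, the elongation factor of which CDK9 is the kinase. RELA and REL proteins are also known to carry O-GlcNAc.

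The promoter stretches that follow are shown because such feedback acts through the kB decamer consensus, the motif NF-kB dimers bind, and they hold matches to it. RefSeq promoter windows (GRCh38.p14, 250 bases before to 50 after a start) were found for 7 of the 9 members. Of these 7 genes, 6 had a match on either strand in at least 1 of their windows, against 7.09% of the 27305 genes in the table. By window it was 7 of 12, against 5.91% of 35116. Each stretch is at most 30 bases, 5′ to 3′ on the gene's strand, with bases that match on either strand in capitals and overlapping matches run together.
NFKB1 (chr4:102501300-102501329, + strand): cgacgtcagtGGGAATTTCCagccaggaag
NFKB2 (chr10:102394462-102394490, + strand): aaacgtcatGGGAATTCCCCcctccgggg
REL (chr2:60881518-60881546, + strand): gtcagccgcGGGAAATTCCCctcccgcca
NFKBIA (chr14:35404811-35404840, - strand): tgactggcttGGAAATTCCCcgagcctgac
NFKBIB (chr19:38899932-38899960, + strand): ggcgtggtgGGGAATTTCCCgcagggcgg
TNFAIP3 (chr6:137867188-137867217, + strand): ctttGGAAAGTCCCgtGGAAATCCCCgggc
NFKB2 had 3 further stretches, which are not shown. RELA had no match in either of its windows, which says only that these letters are not in them. The TATA motif TATAAA, searched on both strands in the same windows, was found for NFKBIA alone among the 7 members, against 14% of all genes. The GC-box motif GGGCGG was found for all 7, against 48.3%. The 3 motifs were searched separately, so matches may overlap. The matches describe sequence only, and the 6 genes with a match did not share 1 direction of change in the results that follow.

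Each library held at least 60152710 and at most 154367238 reads assigned to genes, and the 9 members lay far above the floor of 3 reads, which was 1.76 to 5.47 normalised counts. Values are normalised counts, that is, reads divided by 1 size factor per library, and ± values are SDs over the 2 libraries. A gene was called, and is said to rise or fall, when its Benjamini-Hochberg adjusted p in a limma fit over 19393 genes was below 0.05. The 13 mitochondrially encoded mRNAs made up 4.45% to 5.53% of the normalised counts where AT7519 was absent, and 6.57% to 7.73% where it was present. In bulk libraries fewer cells of a type and less RNA per cell cannot be told apart, and a level is relative to the scale chosen. On the deposited scale the median gene moved by -0.0042 (log2) under AT7519 and by 0.022 under the combination, each relative to control. Scaled to equal mitochondrial mRNAs it moved by -0.91 and -0.95, and to equal totals by -0.34 and -0.23. The calls under AT7519 were 5045 higher and 5278 lower as deposited, 2036 and 8364 at equal totals, and 383 and 14656 at equal mitochondrial mRNAs. Under the combination they were 5097 and 5351, 2652 and 7369, and 425 and 14590. The p-values behind the calls at equal mitochondrial mRNAs are not comparable with those on the deposited scale. The 8 luminal prostate markers used, KLK3 among them, were all measured, with summed levels of 355815 to 402861 where AT7519 was absent and 413523 to 479747 where it was present. Of the other markers, those of leukocytes (7 genes) summed to 5.13 to 21.6 and those of basal epithelium (3 genes) to 41.8 to 67.9 outside the combination group and 75.9 to 106 in it. The basal sum was nearly all KRT14 (mean 63.8), as TP63 and KRT5 had means of 0.30 and 0.95. The 3 endothelial markers in the table summed to 1132 to 1506, with CDH5 and KDR at 0. The 6 fibroblast markers, 2 of them under a mean of 10, summed to 2288 to 3018 where AT7519 was absent and 3301 to 4382 where it was present. The part of the luminal, basal and fibroblast markers in the results was not tested.

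Per kilobase of exon, NFKBIA was the most abundant of the 9 mRNAs in control cells, at 1329 ± 28.8 normalised counts per kb. NFKB1 followed at 1051 ± 147, and then NFKB2 at 827 ± 28.0 and RELA at 805 ± 24.4, which did not differ beyond their spread. Lower levels per kb were those of NFKBIB (499.8 ± 2.55), NFKBIE (169.8 ± 3.67), REL (54.9 ± 3.41), TNFAIP3 (47.6 ± 4.99) and RELB (24.4 ± 5.01). Under AT7519 alone RELA (1187 ± 173) and NFKB2 (764 ± 55.7) already stood above NFKB1 (675 ± 32.7) per kb. In the combination group NFKBIA stayed first at 1872 ± 19.9 per kb, and RELA (1051 ± 35.8) and NFKB2 (721 ± 86.1) again stood above NFKB1 (425 ± 16.5). Exon lengths are those of GENCODE release 29, the union of all exons of a gene, and not the annotation the authors counted on.

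**Figure D1:**
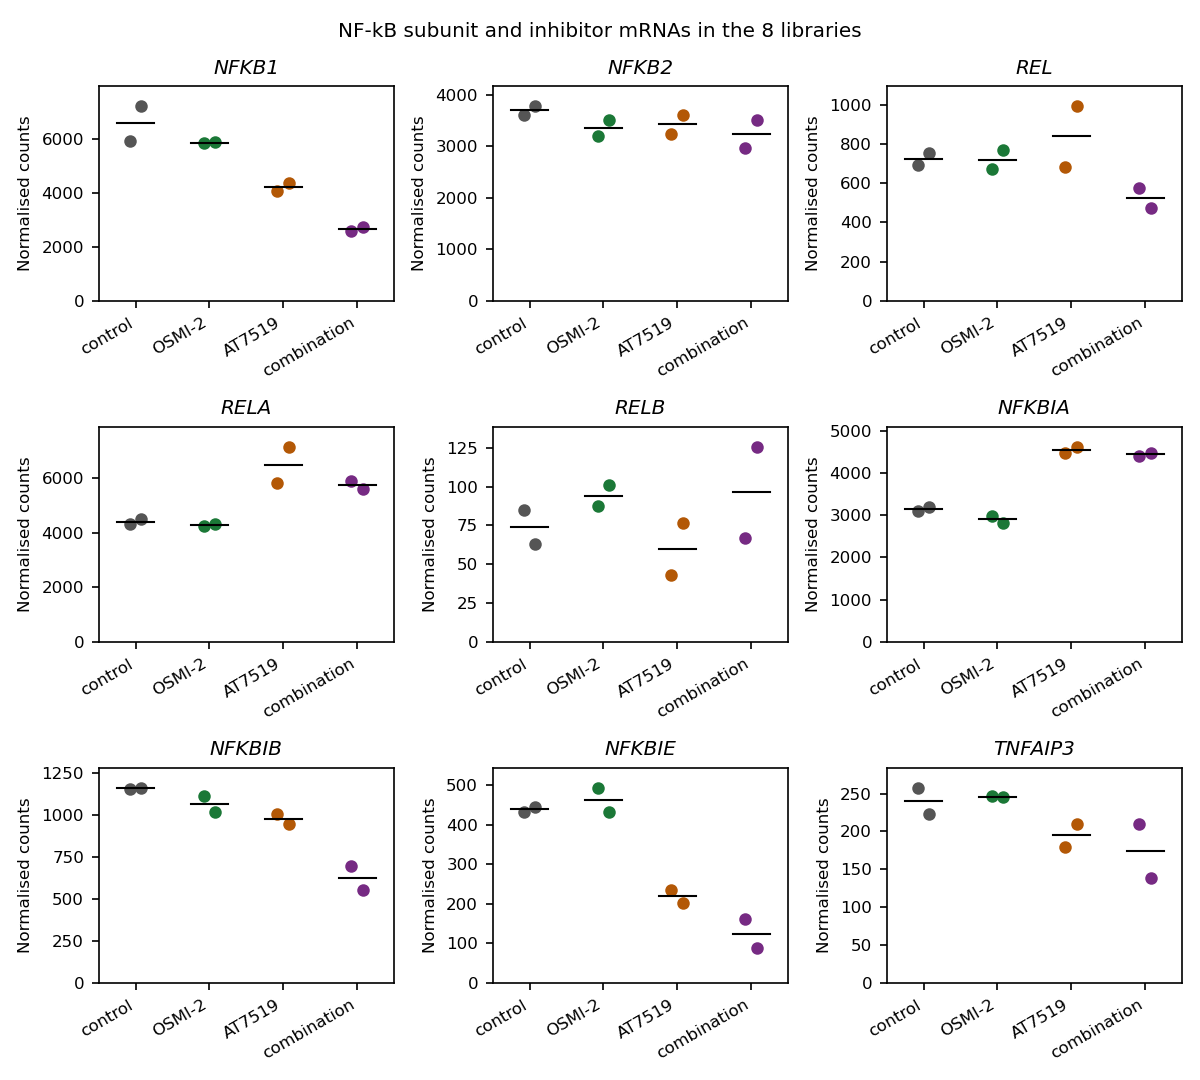
Normalised counts (vertical axis, from 0) of the 9 members in the 8 libraries by treatment group. Points are libraries and lines are means of 2. NFKB1 steps down from 6579 in control to 2659 with the combination. NFKBIE is at 438 in control, 463 with OSMI-2 alone and 124 with the combination. RELA and NFKBIA are higher with AT7519, alone or combined, on this deposited scale but lower when libraries are set to equal mitochondrial mRNAs.

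With OSMI-2 alone no member passed the test. Limma called 0 of the 9 members, against 3.02% of all genes tested (0.645% higher and 2.38% lower). None, 0 of 9, reached an unadjusted p of 0.05, against 17.8% of all genes, and edgeR and DESeq2, run on recovered reads, called 0 as well. The log2 changes ran from -0.16 for NFKB1 to 0.36 for RELB, with a median of -0.041 beside -0.018 for all genes. For the abundant members the intervals were narrow, with a 95% interval of -0.25 to 0.17 for RELA, -0.31 to 0.064 for NFKBIA and -0.38 to 0.054 for NFKB1. The low level of RELB left a wide one, from -0.42 to 1.13.

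AT7519 parted the subunits. NFKB1 fell 1.55-fold and RELA rose 1.47-fold on the deposited scale, while NFKB2, REL and RELB were not called. Among the inhibitors NFKBIE fell 2.01-fold and NFKBIA rose 1.44-fold, and NFKBIB and TNFAIP3 were not called. Limma called 2 of the 9 members higher, against 26% of all genes, and 2 lower, against 27.2%, so the share of members called, 4 of 9, lies near the 53.2% of all genes called. With the combination, limma called 2 of 9 higher (26.3% of all genes) and 4 lower (27.6%), 6 in all beside a background of 53.9%, with falls of NFKB1 (2.46-fold), NFKBIE (3.68-fold), NFKBIB (1.87-fold) and REL (1.38-fold). RELA rose 1.31-fold and NFKBIA 1.41-fold, and as with AT7519 alone both rises were falls when scaled to equal mitochondrial mRNAs. The comparisons with control share the control libraries, so their values are given side by side. The members' median change was -0.25 (log2) under AT7519 and -0.47 under the combination.

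**Figure D2:**
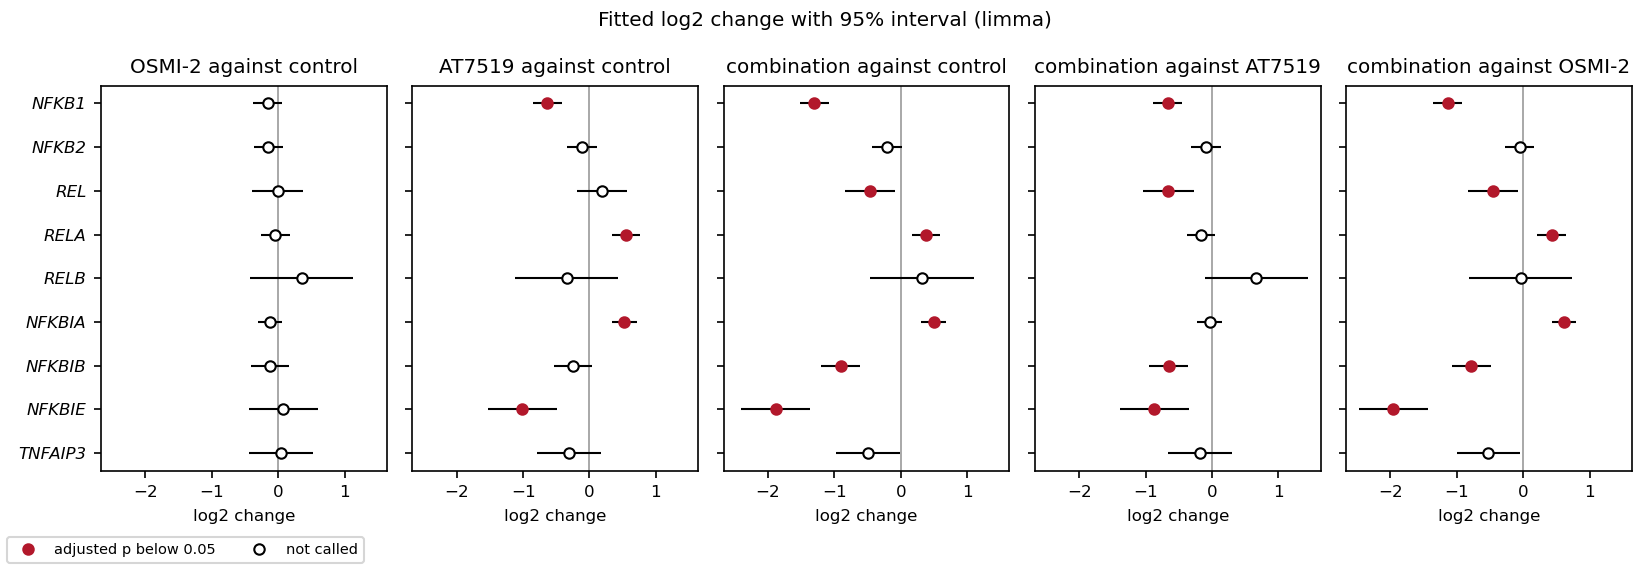
Fitted log2 change of each member (horizontal axis) in 5 comparisons, with limma's 95% interval as a bar. Filled points have an adjusted p below 0.05. No point is filled with OSMI-2 alone, and with OSMI-2 added to AT7519 the 4 filled points (NFKB1, REL, NFKBIB and NFKBIE) are all to the left of 0.

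NFKB1, whose product yields a DNA-binding subunit and, uncut, an inhibitor, was the only subunit called in 4 of the comparisons under every alternative run. Its levels were 5927 and 7231 in control replicates 1 and 2, 5839 and 5871 with OSMI-2, 4078 and 4367 under AT7519, and 2586 and 2732 under the combination. The order was control, OSMI-2, AT7519, combination, and no 2 neighbouring groups overlapped. Against control its log2 change was -0.63 (SE 0.10, limma adjusted p = 0.000106) with AT7519 and -1.30 (SE 0.10, adjusted p = 1.44e-07) with the combination. The combination was also 1.59-fold below AT7519 alone (log2 change -0.67, SE 0.10, adjusted p = 0.000578) and 2.2-fold below OSMI-2 alone (-1.14, adjusted p = 4.8e-07). These 4 falls were called under all 21 alternatives run. OSMI-2 by itself gave -0.16 (adjusted p = 0.454).

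NFKB2, the other precursor gene, was not called in any comparison on the deposited scale. Its values were 3618 and 3796 in control, 3199 and 3505 with OSMI-2, 3251 and 3605 under AT7519 and 2961 and 3507 under the combination. Control lay above the other groups by a narrow margin, and OSMI-2, AT7519 and the combination overlapped. The log2 change was -0.11 with AT7519 (95% interval -0.34 to 0.11, adjusted p = 0.38) and -0.20 with the combination (-0.43 to 0.023, adjusted p = 0.12). At equal totals NFKB2 passed as a fall in both, by -0.46 (adjusted p = 0.00229) and -0.46 (adjusted p = 0.00219), and without combination replicate 2 the second passed too (-0.32, adjusted p = 0.0378).

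RELA, the transactivating subunit of the main NF-kB dimer, had 4305 and 4494 normalised counts in control, 4225 and 4323 with OSMI-2, 5818 and 7155 under AT7519 and 5883 and 5606 under the combination. The 4 libraries with AT7519 all lay above the 4 without it, and the AT7519 and combination groups overlapped. The log2 change was 0.55 (SE 0.099, adjusted p = 0.000298) with AT7519 and 0.38 (SE 0.099, adjusted p = 0.00438) with the combination, and at equal totals neither was called (0.21, adjusted p = 0.107, and 0.13, adjusted p = 0.339). Scaled to equal mitochondrial mRNAs both turned to falls, of -0.36 (adjusted p = 0.0113) and -0.59 (adjusted p = 2.72e-05).

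REL, the subunit best known from lymphocytes, was the member whose calls rested most on single libraries. It had 691 and 755 normalised counts in control, 671 and 767 with OSMI-2, 682 and 997 under AT7519 and 576 and 474 under the combination. The combination lay below the other 3 groups, which overlapped. REL fell with the combination against control (log2 change -0.47, SE 0.18, adjusted p = 0.038), against AT7519 (-0.66, SE 0.18, adjusted p = 0.0188) and against OSMI-2 (-0.46, SE 0.18, adjusted p = 0.0407). Against control the call was lost without control replicate 1 (adjusted p = 0.0783), control replicate 2 (0.181) or combination replicate 2 (0.223), and at equal upper quartiles (0.141), after quantile normalisation (0.393), with no filter on low values (0.0694) and with limma without trend (0.117). Against AT7519 it was lost without AT7519 replicate 2 (adjusted p = 0.144) or combination replicate 2 (0.143). Against OSMI-2 it was lost under 10 of the 21 alternatives. With AT7519 alone the change was 0.19 (adjusted p = 0.384), which passed as a rise of 0.46 without AT7519 replicate 1 (adjusted p = 0.0391) and as a fall of -0.72 when scaled to mitochondrial mRNAs (adjusted p = 0.000157).

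RELB, which pairs with the NFKB2 product in the non-canonical pathway, was scarce. It had 84.7 and 63.2 normalised counts in control, 87.3 and 101 with OSMI-2, 43.1 and 76.3 under AT7519 and 66.6 and 126 under the combination. The combination group overlapped each of the others. On the deposited scale no comparison called it, and the 95% interval with AT7519 ran from -1.12 to 0.43 (log2). Scaled to equal mitochondrial mRNAs RELB passed as a fall with AT7519 (-1.25, adjusted p = 0.000363).

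NFKBIA encodes IkB-alpha, the inhibitor that NF-kB itself induces most rapidly. Its levels were 3106 and 3202 in control, 2982 and 2817 with OSMI-2, 4465 and 4629.7 under AT7519 and 4408 and 4475 under the combination. All 4 libraries with AT7519 stood above all 4 without it, and the AT7519 and combination groups overlapped. It rose by 0.53 (log2, SE 0.086, adjusted p = 0.000142) with AT7519 and by 0.49 (SE 0.086, adjusted p = 0.000231) with the combination. At equal totals the first was not called (0.18, adjusted p = 0.0879), and scaled to equal mitochondrial mRNAs both were falls (-0.39, adjusted p = 0.00894, and -0.48, adjusted p = 0.00102). Adding OSMI-2 to AT7519 moved it by -0.034 (95% interval -0.22 to 0.15, adjusted p = 0.832).

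NFKBIB encodes IkB-beta, a slower-acting inhibitor. It had 1157 and 1166 normalised counts in control, 1117 and 1020.0 with OSMI-2, 1008 and 947 under AT7519 and 696 and 553 under the combination. The groups did not overlap and followed the order control, OSMI-2, AT7519, combination, though the first 3 lay close together. With AT7519 alone the log2 change was -0.25 (adjusted p = 0.136), which passed at equal totals (-0.59, adjusted p = 0.00207). With the combination it fell by 0.90 (log2, SE 0.13, adjusted p = 5.76e-05) against control, a fall called under all 21 alternatives. Against AT7519 alone the fall was 1.57-fold (log2 change -0.65, SE 0.13, adjusted p = 0.00437), and without combination replicate 2 it was -0.49 (adjusted p = 0.0526). The gene overlaps the protein-coding gene SIRT2 by 163 bases on the other strand. TNFAIP3 likewise overlaps the antisense gene AL357060.1, by 1046 bases, and RELA overlaps AP001362.2 by 9. The largest overlap was that of REL, with AC010733.2 (5702 bases) and also with RNU4-51P (140 bases). Both lie on the strand of REL, so a strand setting cannot separate them. Overlaps are of whole gene spans, and their part in the counts was not tested. The library kit marks strand, per the labels, but whether the counting used it is not stated.

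NFKBIE, the gene of IkB-epsilon, had the largest log2 change of the 9 with AT7519 and with the combination. Its levels were 432 and 445 in control, 494 and 432 with OSMI-2, 235 and 201 under AT7519 and 159.9 and 87.5 under the combination. Control and OSMI-2 overlapped, and both AT7519 libraries lay below these and above both combination libraries. The log2 change was -1.01 (SE 0.24, adjusted p = 0.00278) with AT7519 and -1.88 (SE 0.24, adjusted p = 1.48e-05) with the combination, and both falls were called under all 21 alternatives. Only 3.82% of genes tested had a log2 change as low as that of NFKBIE with the combination. Against AT7519 alone it was 1.83-fold lower with the combination (-0.87, SE 0.24, adjusted p = 0.0217), and this call was lost without combination replicate 2 (-0.44, adjusted p = 0.205) or AT7519 replicate 1 (-0.76, adjusted p = 0.107), with no filter on low values (0.0529), with only the groups compared (0.0802) and with limma without trend (0.117).

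TNFAIP3, the ubiquitin-editing enzyme, had 258 and 223 normalised counts in control, 246 and 245 with OSMI-2, 180.1 and 209 under AT7519 and 210.2 and 139 under the combination. The libraries with AT7519 were all below those without it, and the AT7519 and combination groups overlapped. No comparison called it on the deposited scale, with -0.30 (log2, adjusted p = 0.276) under AT7519 and -0.49 (95% interval -0.97 to -0.0066, adjusted p = 0.0813) under the combination. At equal totals both passed, at -0.64 (adjusted p = 0.0289) and -0.74 (adjusted p = 0.0139). Without combination replicate 1 the second passed as well (-0.79, adjusted p = 0.0138).

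**Figure D3:**
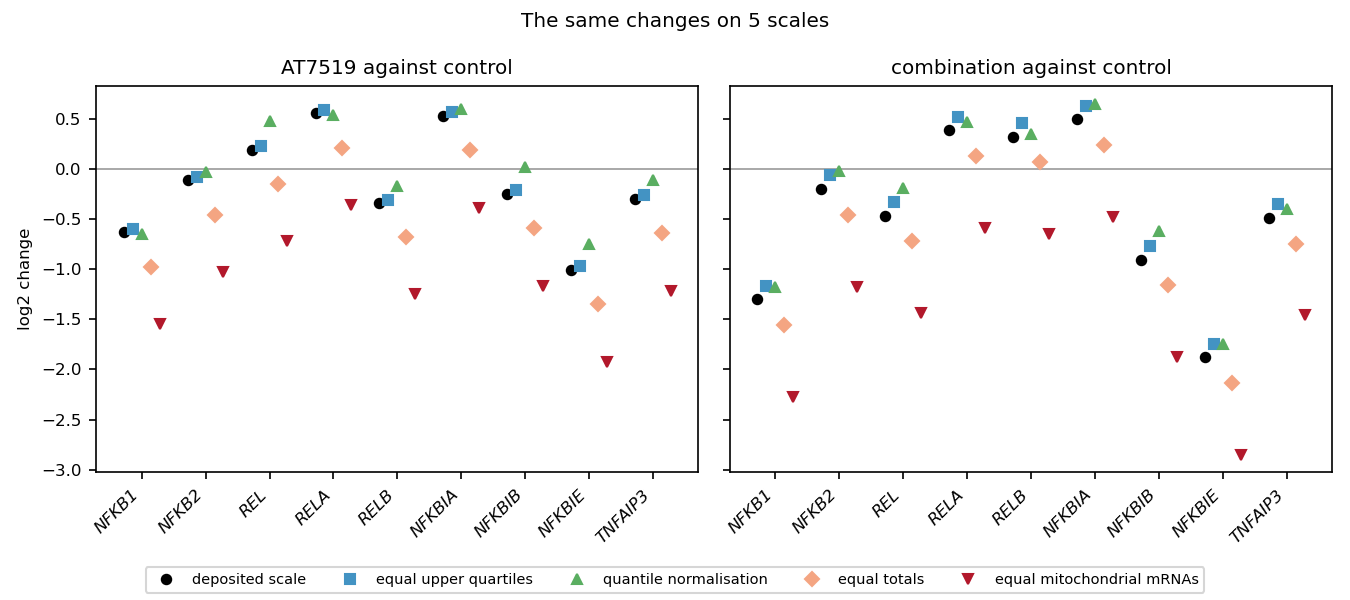
Log2 change of each member (vertical axis) under AT7519 and under the combination, relative to control, on the deposited scale and 4 others. NFKB1, NFKBIE and NFKBIB with the combination are below 0 on every scale, while RELA and NFKBIA are above 0 on 4 scales and below it when libraries are set to equal mitochondrial mRNAs.

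The ratio of 2 mRNAs within a library does not depend on the scale. It is not corrected for length, so only its change is read. RELA over NFKB1 was 0.726 and 0.621 in control, 0.724 and 0.736 with OSMI-2, 1.43 and 1.64 under AT7519 and 2.28 and 2.05 under the combination. The ratio was thus alike without AT7519, higher with it, and highest with both agents, without overlap between those levels. It sets a member that rose on the deposited scale over a member that fell, so it restates their changes. NFKB2 over NFKB1 went from 0.568 ± 0.060 in control to 0.811 ± 0.020 with AT7519 and 1.21 ± 0.098 with the combination. For the inhibitors, NFKBIA over NFKBIE was 7.195 in both control libraries, 6.04 and 6.53 with OSMI-2, 19.0 and 23.0 under AT7519 and 27.6 and 51.1 under the combination. NFKBIA over RELA, by contrast, lay between 0.647 and 0.798 in all 8 libraries, and the 4 groups were not in separate ranges. NFKBIA over TNFAIP3 was 24.8 and 22.1 under AT7519 and 21.0 and 32.3 under the combination, which overlapped, and 12.0 and 14.4 in control.

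**Figure D4:**
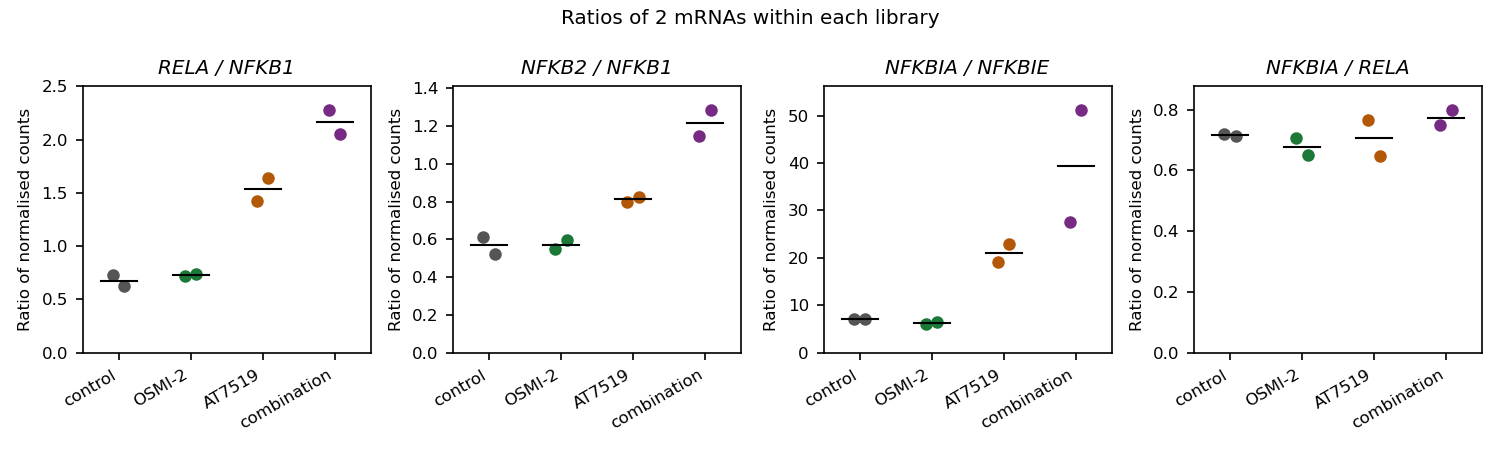
Ratios of normalised counts of 2 members within each library (vertical axes, from 0). Points are libraries and lines are means of 2. Mean RELA over NFKB1 is 0.674 in control and 2.16 with the combination, NFKBIA over NFKBIE is 7.195 and 39.3, while NFKBIA over RELA stays between 0.647 and 0.798.

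The comparison of the combination with AT7519 alone asks what OSMI-2 added to AT7519. Limma called 4 of the 9 members lower, NFKB1, REL, NFKBIB and NFKBIE, against 12.5% of all genes, and 0 higher, against 7.21% (19.7% in either direction). The median of the 9 was -0.19 (log2) beside -0.017 for all genes. The other 5 were not called, with values from -0.19 for TNFAIP3 to 0.67 for RELB (adjusted p = 0.621 and 0.224). Without combination replicate 2, the shallowest library, the log2 change was -0.49 for NFKBIB and -0.44 for NFKBIE. With it they were -0.65 and -0.87. Of the 4 falls, only that of NFKB1 was called under every alternative run. Limma without its variance trend called 1 (NFKB1), and 2.58% of all genes lower.

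The falls of these 4 genes with OSMI-2 added to AT7519 were not shown to differ from the effect of OSMI-2 alone. In the interaction of both agents limma called 0 of 9 members, against 1.04% of all genes (0.0619% higher and 0.975% lower), while 4 of the 9 reached an unadjusted p of 0.05, as did 10.1% of all genes. The interaction was -0.51 (log2, adjusted p = 0.129) for NFKB1, -0.65 (0.354) for REL, -0.53 (0.292) for NFKBIB and -0.95 (0.297) for NFKBIE. EdgeR on recovered reads called 0, and DESeq2 called NFKB1 (-0.52, adjusted p = 0.0217). Without combination replicate 1 NFKBIE passed (-1.38, adjusted p = 0.0199).

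Against OSMI-2 alone, the combination shows what AT7519 added to OSMI-2. Limma called 2 members higher (27.5% of all genes) and 4 lower (27.3%), beside 54.8% of genes in either direction. NFKBIA rose 1.53-fold (log2 change 0.62, SE 0.086, adjusted p = 3.29e-05) and RELA 1.34-fold (adjusted p = 0.00213). Scaled to equal mitochondrial mRNAs NFKBIA was not called (-0.24, adjusted p = 0.121) and RELA was a fall (-0.43, adjusted p = 0.00306), and at equal totals RELA was not called (0.092, adjusted p = 0.492). NFKBIE fell 3.88-fold (log2 change -1.95, SE 0.24, adjusted p = 1.04e-05) and NFKBIB 1.72-fold (adjusted p = 0.000202), besides NFKB1 and REL above.

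The genes whose course over the 8 libraries was most like that of a member were found by the root mean square difference of log2 values, each gene centred on its own mean, among 13231 genes. NFKB1, with a spread of its own of 0.511, lay closest to C5orf51 (0.0638), PAPD5 (0.0768) and CNOT4 (0.0817). NFKBIE, with a spread of 0.834, lay closest to SOCS6 (0.105), ZBTB5 (0.107) and NAA30 (0.136). NFKBIB followed KIAA1586 (0.0395), YTHDF1 (0.0525) and ATXN1L (0.0557). These patterns were not rare, as 99 genes came within 0.15 of NFKB1 and 275 within 0.15 of NFKBIB, though only 3 of NFKBIE. NFKBIA lay closest to HADHA (0.0277), CAPZB (0.0289) and YWHAB (0.0318), and 2143 genes came within 0.15. RELA was nearest to B4GALT3 (0.0358), SF3A2 (0.0466) and C3orf17 (0.0505), NFKB2 to PRRC2A (0.0396), GTF2H2B (0.0453) and HERC4 (0.0525), REL to IP6K2 (0.126), KLF6 (0.128) and ZNF749 (0.13), and TNFAIP3 to MRPS31P5 (0.0993), FAM193A (0.0999) and MTMR3 (0.102). RELB had no gene within 0.15, and its nearest were RASSF8-AS1 (0.158), NLGN3 (0.175) and ECM1 (0.179).

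The rest of the pathway is described by 4 lists, whose counts are read against the all-gene shares given above, 26% higher and 27.2% lower with AT7519 and 26.3% and 27.6% with the combination. Of 24 genes of the IkB kinase complex and the steps above it, limma called 5 higher and 11 lower under AT7519 and 5 and 12 under the combination, with medians of -0.26 and -0.31 (log2). The 5 rises in each comparison lie near the shares of all genes. RIPK1, the kinase at the TNF receptor complex, fell 3.04-fold with AT7519 (adjusted p = 7.36e-08) and 2.6-fold with the combination (adjusted p = 1.42e-07). Its counts were 2965 and 2623 in control, 912 and 921 under AT7519 and 1073 and 1069 under the combination. TBK1, an IkB kinase relative, fell 2.53-fold and 3.14-fold (adjusted p = 6.39e-08 and 8.5e-09), and TRAF6, a ubiquitin ligase of Toll-like and IL-1 receptor signalling, 2.53-fold and 2.04-fold (8.77e-06 and 8.35e-05). The rises named here were smaller. With AT7519 the 3 largest were those of RNF31, of the linear ubiquitin ligase (1.41-fold, adjusted p = 0.0106), the adaptor TRADD (1.36-fold, 0.0258) and the adaptor TICAM1 (1.33-fold, 0.00775). RNF31 was not called without control replicate 2 (adjusted p = 0.0592) or AT7519 replicate 2 (0.151). TRADD was not without control replicate 2 (0.366), AT7519 replicate 1 (0.0552) or AT7519 replicate 2 (0.0793), and TICAM1 was not without control replicate 1 (0.0653) or AT7519 replicate 1 (0.0591). TICAM1 was instead 1.43-fold lower with the combination (log2 change -0.52, adjusted p = 0.00162), a call lost after quantile normalisation (-0.22, adjusted p = 0.119). With the combination the 3 largest rises were those of TRADD (1.66-fold, 0.00117), RBCK1 (1.38-fold, 0.000133) and the kinase subunit IKBKB (1.36-fold, 0.00241). Scaled to equal mitochondrial mRNAs these 6 changes had the opposite sign, each a called fall except TRADD with the combination (-0.25, adjusted p = 0.158). On the deposited scale RBCK1 was also called higher with AT7519 (1.19-fold, adjusted p = 0.0143) and RNF31 with the combination (1.31-fold, 0.0348). SHARPIN was called higher in both (log2 change 0.40, adjusted p = 0.00213, and 0.42, 0.00152).

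Of 16 receptors that signal to NF-kB, 12 were measurable, and 10 of these fell with AT7519 (6 without control replicate 1) and 7 with the combination, with 0 higher in either and medians of -0.53 and -0.76. Without control replicate 1 the share of all genes called lower with AT7519 was 21.9%. The interleukin-1 receptor gene IL1R1 had 4865 and 4472 normalised counts in control, 1662 and 1398 under AT7519 and 1542 and 1893 under the combination, lower by a factor of 3.06 (adjusted p = 1.6e-07) and 2.73 (adjusted p = 2.21e-07). The flagellin receptor gene TLR5 fell 2.87-fold and 2.09-fold (adjusted p = 7.33e-05 and 0.00133). TNFRSF12A, the receptor of the cytokine TWEAK, fell 1.63-fold and 3.12-fold (adjusted p = 0.0196 and 3.46e-05), the first not called without control replicate 1 (adjusted p = 0.121), control replicate 2 (0.0514) or AT7519 replicate 2 (0.254).

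Among 15 measurable genes of other inhibitors, nuclear IkB proteins and deubiquitinases, 4 rose and 5 fell with AT7519 and 5 rose and 6 fell with the combination, and the medians were 0.11 and -0.14. With AT7519 these counts lie near the shares of all genes. ZC3H12A, an endonuclease that degrades inflammatory mRNAs, had the largest rise of the pathway genes named here. It had 3342 and 3148 normalised counts in control, 2873 and 3592 with OSMI-2, 11751 and 15216 under AT7519 and 13831 and 20567 under the combination. The rise was 4.12-fold with AT7519 (log2 change 2.04, SE 0.16, adjusted p = 2.92e-07) and 5.2-fold with the combination (2.38, adjusted p = 5.24e-08). Unlike the rises of RELA and NFKBIA, it was still a called rise when scaled to mitochondrial mRNAs (1.13, adjusted p = 1.21e-16, and 1.40, adjusted p = 4.32e-25). These p-values are lower than those on the deposited scale although the changes are smaller, so they are not comparable with those. COMMD1, which limits RELA on chromatin, rose 1.45-fold and 1.41-fold (adjusted p = 0.00417 and 0.00714), RNF11 1.34-fold with AT7519 (0.000354) and NFKBID, a nuclear IkB protein, 1.4-fold with the combination (0.0361), all falls when scaled to mitochondrial mRNAs. NFKBID was not called without control replicate 1 (adjusted p = 0.0614), control replicate 2 (0.198) or combination replicate 2 (0.168), and COMMD1 with the combination was not without combination replicate 2 (0.0518). OTUD7B, a deubiquitinase, fell 3.09-fold and 4.36-fold (adjusted p = 1.77e-07 and 1.31e-08) and NKIRAS1, which binds IkB proteins, 1.75-fold and 2.6-fold (0.000141 and 9.13e-07). The ubiquitin ligase ITCH fell 1.48-fold with AT7519 (0.000143) and 1.79-fold with the combination (3.85e-06). NFKBIZ, another nuclear IkB protein, fell 2.05-fold with the combination (0.00106) and was not called with AT7519 (log2 change -0.51, adjusted p = 0.0614). RNF11 was also called higher with the combination on the deposited scale (1.24-fold, adjusted p = 0.00313).

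Most of the NF-kB target genes listed here were below the level tested. Of the 30 listed, which leave out the members described above, 9 had a mean of at least 10 normalised counts. The chemokine gene CXCL8 (IL8 in the table) lay between 0 and 10.2 in the 8 libraries, and IL6 and CXCL1 were listed at 0 in all. Of the 9, limma called 1 higher and 3 lower with AT7519 (0 and 2 without control replicate 1) and 0 and 3 with the combination, with medians of -0.58 and -0.74. The 3 falls of 9 in each comparison lie near the shares of all genes. BIRC3, an apoptosis inhibitor and ubiquitin ligase, had 817 and 973 normalised counts in control, 725 and 995 with OSMI-2, 317 and 356 under AT7519 and 147 and 221 under the combination. It fell 2.65-fold with AT7519 (log2 change -1.41, SE 0.21, adjusted p = 5.87e-05) and 4.94-fold with the combination (-2.30, SE 0.21, adjusted p = 5.47e-07). CD83 fell 1.78-fold and 1.83-fold (adjusted p = 0.00505 and 0.0036), calls that were lost without control replicate 1 (adjusted p = 0.0736 and 0.0574) and, with AT7519, without AT7519 replicate 2 (0.0611). The caspase regulator CFLAR fell 1.55-fold with AT7519 (1.71e-05) but was not called with the combination (log2 change -0.12, adjusted p = 0.217). Its means were 5215 in control, 6448 with OSMI-2, 3359 under AT7519 and 4784 under the combination. The cytokine gene LIF fell 3.75-fold with the combination (6.3e-06), and its levels were 629 and 545 in control, 497 and 472 under AT7519 and 207 and 117 under the combination. The 1 rise was that of SOD2 with AT7519, 1.21-fold (adjusted p = 0.0103), which came to -0.072 (log2) at equal totals, a fall when scaled to mitochondrial mRNAs, and not called without control replicate 1 (adjusted p = 0.115) or AT7519 replicate 1 (0.0714).

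With OSMI-2 alone limma called 0 genes of each of these 4 lists. An unadjusted p of 0.05 was reached by 5 of the 24 kinase complex genes, 1 of 12 receptors, 0 of 15 other inhibitors and 2 of 9 targets, beside 17.8% of all genes. EdgeR called 1 target and 3.44% of all genes, and DESeq2 called 1 target, 1 gene of the kinase complex list and 7.78% of all genes.

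**Figure D5:**
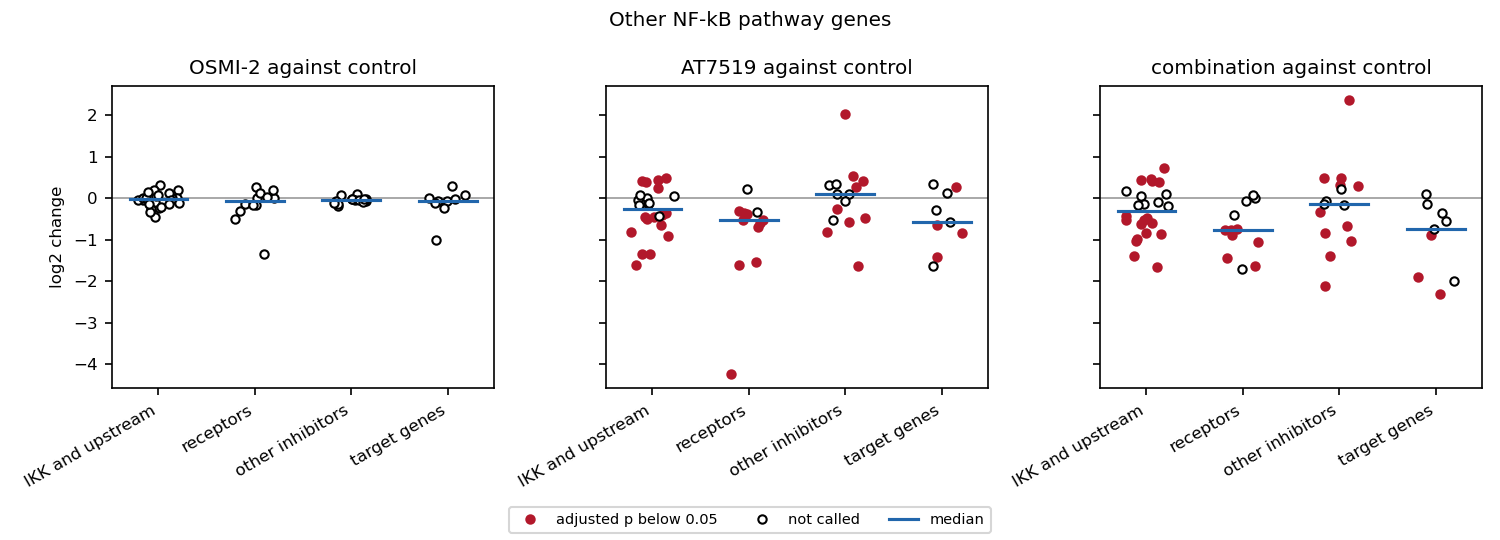
Log2 change (vertical axis) of the measurable genes of 4 NF-kB pathway lists against control, with jitter along the horizontal axis. Filled points have an adjusted p below 0.05 and lines are medians. With OSMI-2 alone no point is filled, and under either AT7519 treatment the receptors and targets have medians of -0.53 to -0.76. The lowest point, among the receptors with AT7519, is TNFRSF1B, whose mean is 11.6 normalised counts.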

How the data were processed

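The deposited table holds a signal per gene and library, which the authors named normalised counts. Per the submitters' processing notes, the tools were STAR, HTSeq and DESeq2, with hg19 and GRCh37 as builds. Their versions and roles, and the annotation and strand setting, are not stated. In each library the values were whole multiples of 1 step for 100% of genes (tolerance 0.01), so they are taken as reads over 1 factor per library, and the recovered reads served edgeR and DESeq2 as alternatives. The 28 lines without a gene name were dropped.

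The 19393 genes averaging 10 or more normalised counts were tested on log2(value + 1) by limma 3.58.1 in R 4.3.3, with its variance trend, 4 group means, 4 residual and 10.1 prior degrees of freedom. P-values are two-sided and adjusted by Benjamini-Hochberg over all genes. The degrees of freedom given are those of the fit on the deposited scale. Those of the fit scaled to equal mitochondrial mRNAs are not given here, and its p-values are not comparable with the main ones. Folds are back-transformed from that scale, which understates changes of low genes. EdgeR 4.0.16 and DESeq2 1.42.0 were run on recovered reads. Replicates of a group differed by more than counting noise (chi-square of 18.8 to 29.4 per degree of freedom). Each was counted as its own library. Technical spread can also exceed counting noise, so this does not show that the replicates came from separate cultures. The floor of 3 reads covers counting error only.

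The members and lists were chosen with earlier results of these data known. Named were all 9 members, up to 3 rises and 3 falls per list and comparison with control (mean of at least 50), and the 3 genes most like each member. TNFRSF1B, CXCL8, IL6, CXCL1, SHARPIN and, for the interaction, TAB2, TICAM1 and LIF were named after their values were seen. So was TICAM1 for its fall with the combination. RBCK1, RNF31, RNF11, ITCH, NFKBIZ and CFLAR were likewise given for another comparison with control after their values were seen. Promoter sequences are from RefSeq (GRCh38.p14), and gene lengths and overlaps from GENCODE release 29, matched by symbol. CXCL8 and OTULIN were looked up by older symbols, and PECAM1 was not found under that symbol. Some of the marker genes listed are not reported here and were left out of the sums.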

Additional observations from a re-analysis of the deposited data

Results flagged for a closer look

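In 3 genes of the wider pathway the effect of OSMI-2 with AT7519 differed from its effect without AT7519, by limma's interaction term. The difference was -0.60 (log2, adjusted p = 0.034) for TAB2, -0.82 (adjusted p = 0.03) for TICAM1 and -1.63 (adjusted p = 0.0264) for LIF, among 201 genes (1.04% of all tested) with a called interaction. In the combination against AT7519 alone TAB2 was 1.61-fold lower (adjusted p = 0.000212), TICAM1 1.9-fold lower (0.00019) and LIF 3.1-fold lower (0.000333). Each interaction was lost without control replicate 1 (adjusted p = 0.136, 0.182 and 0.119), control replicate 2 (0.166, 0.12 and 0.151), OSMI-2 replicate 1 (0.176, 0.148 and 0.158), OSMI-2 replicate 2 (0.162, 0.163 and 0.116), AT7519 replicate 1 (0.0983, 0.0946 and 0.0732) and combination replicate 2 (0.109, 0.101 and 0.0627), in the order TAB2, TICAM1, LIF. Limma without its variance trend called 0 interactions over all genes, so these 3 were lost there too. Leaving out a control or OSMI-2 library left 2 to 7 genes called in the whole table.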

How the results depend on the processing

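The falls of NFKB1 in 4 comparisons, of NFKBIE in 3 and of NFKBIB in 2 were called under each of the 21 alternatives, and the cause of the changes listed here was not tested. With AT7519 limma called 9 members, all lower, when libraries were scaled to mitochondrial mRNAs, beside 75.6% of all genes called lower. On the deposited scale it called 4, of which 2 were lower and 2 higher, beside 27.2% of all genes called lower. The p-values under mitochondrial scaling are not comparable with the main ones, so counts of calls on that scale are not either. In the combination against AT7519 limma without trend called 1, and without 1 library 1 to 4. In the interaction DESeq2 called 1, and without 1 library 0 to 1 were called. Scaled to mitochondrial mRNAs, log2 changes turned with AT7519 to -0.72 (REL), -0.36 (RELA), -0.39 (NFKBIA), -0.47 (TRADD), -0.42 (RNF31), -0.50 (TICAM1), -0.49 (RNF11), -0.38 (COMMD1) and -0.64 (SOD2). With the combination they turned to -0.59 (RELA), -0.65 (RELB), -0.48 (NFKBIA), -0.53 (IKBKB), -0.25 (TRADD), -0.51 (RBCK1), -0.50 (NFKBID) and -0.49 (COMMD1), against OSMI-2 to -0.43 (RELA) and -0.24 (NFKBIA), and with OSMI-2 to -0.050 (NFKBIE) and -0.088 (TNFAIP3). At equal totals they turned to 0.066 (REL) and 0.034 (RELA) with OSMI-2, -0.15 (REL) and -0.072 (SOD2) with AT7519, and 0.051 (NFKBIA) for the combination against AT7519. At equal upper quartiles these were 0.050 (REL) and 0.018 (RELA) with OSMI-2, 0.011 (NFKB2) and 0.065 (NFKBIA) against AT7519, and 0.022 (NFKB2) and 0.041 (RELB) against OSMI-2. After quantile normalisation they were 0.017 (RELA) and -0.059 (TNFAIP3) with OSMI-2, 0.019 (NFKBIB) with AT7519, 0.0051 (NFKB2) and 0.058 (NFKBIA) against AT7519, and 0.072 (NFKB2) and 0.12 (RELB) against OSMI-2.

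Without 1 library at a time, members that were not called changed sign within these ranges. With OSMI-2 they were -0.11 to 0.087 (REL), -0.071 to 0.14 (TNFAIP3) and -0.022 to 0.17 (NFKBIE), with AT7519 -0.75 to 0.059 (RELB) and -0.082 to 0.46 (REL), and with the combination -0.13 to 0.77 (RELB). Against AT7519 they were -0.21 to 0.035 (NFKB2) and -0.48 to 0.11 (TNFAIP3), and against OSMI-2 -0.18 to 0.067 (NFKB2) and -0.49 to 0.42 (RELB). For the interaction they were -0.063 to 0.18 (NFKB2), -0.14 to 0.76 (RELB), -0.28 to 0.023 (RELA) and -0.52 to 0.077 (TNFAIP3). Where a library is left out, the lone library of its group is assumed to vary like the other groups.

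With the replicate number as a block limma called 0 members with OSMI-2, 4 with AT7519, 6 with the combination, 4 against AT7519, 6 against OSMI-2 and 0 in the interaction, as without the block. Libraries with equal numbers deviated with correlations of 0.021 to 0.12 across genes, and nothing in the labels says that the numbers pair them. Numbers of list genes called moved by over 1.5 times in some settings, as for mitochondrial scaling, which took other inhibitors with AT7519 from 9 to 15, targets from 4 to 8 with AT7519 and from 3 to 9 with the combination, and receptors from 7 to 12 with the combination. Targets called with the combination were 5 at equal totals or with the block, and targets with AT7519 were 2 after quantile normalisation.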
